A study of Mus musculus with 48 samples.

Results

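The whole blood of 2 groups of female mice was compared to ask what ovariectomy changed in blood when every animal had been stressed. The groups were the 6 mice labelled stress, which had a sham operation, and the 6 mice labelled OVX+stress, whose ovaries had been removed on both sides. All 12 went through chronic ultra-mild stress (CUMS), a schedule of mild stressors such as tilted or soiled cages and shifted light cycles, so they are called CUMS mice and OVX+CUMS mice here. All were C57BL/6J females, labelled as 17 weeks old at sampling. The members were picked by sample title and by no measured value, though earlier results of these data were known when the comparison was chosen. They are 12 of the 48 arrays of the series, 1 array per mouse, and 12 of its 24 blood arrays. The remaining blood arrays, 6 from sham-operated mice without stress (control mice) and 6 from ovariectomized mice without stress (OVX mice), enter only where a comparison needs them. The cycle stage of the sham-operated mice was not given in the sources used here. Each mouse counts as 1 replicate, and p-values measure the spread between these mice.

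The ovary is the main source of circulating estradiol and progesterone, and their receptors act as transcription factors in many cells. Estrogen receptors are present in leukocytes and in blood-forming tissue, where they bear on B cell formation, on interferon responses, on platelets and on red cell output. Chronic stress acts on the same cells mainly through glucocorticoids and the sympathetic nerves. RNA was taken from the pellet of centrifuged blood, which holds red cells, platelets and leukocytes together, and a large part of the mRNA of such a pellet comes from young red cells and encodes hemoglobin and enzymes of heme synthesis.

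Each array gave the background-subtracted brightness of short DNA probes. Levels are given as normalized log2 signal, the log2 of the brightness minus the 75th percentile of the same array, so a level of 0 is the array's own 75th percentile and a difference of 1 is a 2-fold change. A probe was taken as detected when it was well above background on all 12 arrays, as 22038 of the 55681 probes were. They named 12087 genes, each read here from its brightest detected probe, and probes of different genes are not set against each other. The defining markers of blood were present, with all 22 platelet markers, 37 of 39 erythroid markers, all 23 T cell markers and 18 of 20 B cell markers detected. Those of other tissues were mostly not, with 2 of 9 fat cell, 4 of 10 exocrine pancreas, 3 of 10 endothelial, 4 of 8 liver and 2 of 6 connective tissue markers detected. Adipoq, Prss1, Cdh5, Alb and Col1a1 were among those below this limit. The detected ones were not all dim, as Apoa2 of the liver list had a mean level of 4.48 over the 12 arrays.

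Some features of the arrays touch every result. Before normalization the 75th percentile was 54.9 to 104.9 in CUMS mice and 102.8 to 144 in OVX+CUMS mice, so the CUMS arrays were dimmer, and CUMS mouse 2 was dimmest, with 23578 probes well above background against 28967 to 32572 on the 11 other arrays. OVX+CUMS mouse 5 stood apart in its leukocytes. The mean level of the 17 detected neutrophil markers was 5.36 in this mouse while its 5 group mates had 2.10 to 2.39, and that of the 13 monocyte markers was 4.66 against 2.71 to 3.22. CUMS mice 1 and 2 lay on 1 slide with the control mice, CUMS mice 3 to 6 on a slide with 4 OVX mice, and all OVX+CUMS mice on the slide that held the other 2 OVX mice. The groups shared no slide, so within these 12 arrays slide and surgery cannot be told apart.

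Ovariectomy under stress went with many small differences in both directions. Of the 22038 detected probes, 3562 (16.2%) passed the test (limma, adjusted by Benjamini-Hochberg, p under 0.05, both directions), 1432 higher and 2130 lower in OVX+CUMS mice. Among the 12087 genes, 870 (7.20%) were higher and 1030 (8.52%) lower, and these shares are the background for every gene group that follows. Called or not, 6824 of the 12087 genes had a difference above 0 and 5263 below 0, the background for counts of signs. The median size of a called difference was 0.65 on the log2 scale, and 83 genes rose and 141 fell by more than 2-fold. The 6 mice of one group lay wholly above or below the 6 of the other for 211 genes that were higher (1.75%) and 384 that were lower (3.18%) in OVX+CUMS mice.

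The number of called probes depended on single mice and on slide. It was 2947 without OVX+CUMS mouse 5 and 2184 without CUMS mouse 2. It was 5998 without CUMS mouse 4, 1140 without CUMS mouse 5, 1701 without CUMS mouse 6, and 1478, 1781 and 1285 without OVX+CUMS mice 1, 2 and 3. Of 93 called genes followed through these fits, 43 were not called without CUMS mouse 5, 42 without OVX+CUMS mouse 3, 22 without OVX+CUMS mouse 5 and 3 without CUMS mouse 1 or 4. The genes given below as not called without OVX+CUMS mouse 5 are these 22, and none of them was called without CUMS mouse 5 either. With slide as a term in a fit of all 24 blood arrays, no probe was called (limma, 994 at an unadjusted p under 0.05), and with each slide as a random effect among the 12 arrays 2019 were. The fit with slide as a term joins the groups only through the 2 OVX mice on the slide of the OVX+CUMS mice. Its estimates were less precise, with an SE of 0.27 for Alas2, which was 0.15 without that term. A lost call or a turned sign in that fit is to be read with this in mind. Shifting the arrays by their spike-in RNAs instead of their 75th percentile moved the median difference of all genes from 0.08 to 0.38 and left 1018 called probes, 866 higher and 152 lower. Differences are therefore relative to the array's bulk of probes.

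Transcripts of the red cell lineage were lower in OVX+CUMS mice. Of 37 detected erythroid markers, 16 fell and none rose, against 8.52% and 7.20% of all genes, and the median difference was -0.55. It was -0.25 with the spike-in shift, where no member was called, -0.38 with quantile normalization, -0.33 with normexp background correction and 0.05 with slide as a term. The mean level of the list ran from 5.68 to 6.52 (median 5.89) in the CUMS mice and from 5.12 to 5.90 (median 5.35) in the OVX+CUMS mice. CUMS mouse 2 held the highest value and OVX+CUMS mouse 5 was the one ovariectomized mouse inside the range of the CUMS mice. Without mouse 5 of the OVX+CUMS group 22 members were called, without CUMS mouse 2 there were 10, and the number was 8 or 9 without CUMS mouse 5 or 6 or OVX+CUMS mouse 1, 2 or 3. In bulk blood, fewer young red cells and less of these RNAs in each cannot be told apart.

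A letter pattern known from many red cell genes was looked for in those promoters of the list that the reference holds. GATA1, the master regulator of red cell formation, binds GATAA or GATAG after an A or a T, and such a word, on either strand, stood in the 250 bases before the start of 15 of the 21 erythroid list members with a RefSeq promoter window (GRCm38.p6), among them 7 of 9 members that fell and 8 of 12 that were not called. Of all 27025 genes with a window, 29.7% hold one. The stretches below belong to 3 members that fell, are written 5′ to 3′ on the strand of the gene, and have the word in capitals. Alas2 encodes the first enzyme of heme synthesis in red cells (chrX:150547274-150547393, plus strand), Trim10 a protein of late red cell formation (chr17:36869354-36869473, plus strand) and Hba-a1 an adult alpha globin (chr11:32283432-32283551, plus strand).
Alas2: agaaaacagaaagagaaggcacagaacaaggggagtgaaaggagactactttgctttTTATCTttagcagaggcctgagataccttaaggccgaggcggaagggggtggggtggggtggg
Trim10: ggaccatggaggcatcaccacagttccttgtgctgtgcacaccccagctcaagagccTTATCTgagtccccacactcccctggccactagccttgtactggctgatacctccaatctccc
Hba-a1: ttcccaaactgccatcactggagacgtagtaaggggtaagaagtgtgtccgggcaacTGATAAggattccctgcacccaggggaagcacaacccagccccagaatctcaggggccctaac
A match is a description of the letters and no measure of binding.

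Alas2 had a level of 11.86 to 12.73 (median 12.19) in CUMS mice and 11.22 to 11.74 (median 11.44) in OVX+CUMS mice. Every ovariectomized mouse lay below every sham-operated one, and the gene fell by 0.73 on the log2 scale (SE 0.15, adjusted p = 0.0126). The size of this fall depended on the processing. It was -0.39 with normexp correction (limma, adjusted p = 0.0203) but -0.08 with quantile normalization (adjusted p = 0.565). The difference was -0.43 with the spike-in shift (adjusted p = 0.106) and -0.19 with slide as a term (adjusted p = 0.966). Other genes of heme synthesis that fell were Glrx5 and Fech. Glrx5, a glutaredoxin of iron-sulfur cluster assembly, ran from 7.74 to 8.85 and from 6.86 to 7.47 and fell by 0.99 (SE 0.19, adjusted p = 0.0102), and Fech, the ferrochelatase that puts iron into heme, ran from 11.01 to 11.94 and from 10.23 to 10.92 and fell by 0.76 (SE 0.18, adjusted p = 0.0173). Neither pair of ranges overlapped. In all, 4 of the 18 genes for heme synthesis and iron import fell and 1 rose, with a list median of -0.03. The one that rose was Flvcr1, a heme exporter, from a median of -1.57 to -0.79 (difference 0.88, SE 0.28, adjusted p = 0.0443), with its highest value in OVX+CUMS mouse 5 and no call without that mouse (adjusted p = 0.0552).

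Bpgm, the red cell enzyme whose product tunes the oxygen affinity of hemoglobin, had a level of 9.70 to 10.55 (median 10.04) in CUMS mice and 8.88 to 9.41 (median 9.25) in OVX+CUMS mice. The ranges did not overlap, and the difference was -0.87 (SE 0.17, adjusted p = 0.00965). Ahsp, the chaperone of free alpha globin, ran from 6.26 to 7.76 and from 5.51 to 6.58, with some overlap (difference -0.99, SE 0.25, adjusted p = 0.0226). Trim10 fell by 0.79 (SE 0.23, adjusted p = 0.0352), with a highest OVX+CUMS value of 5.91 above the CUMS median of 5.88. Hba-a1, the brightest of the list, had medians of 12.66 and 12.13 (difference -0.52, SE 0.16, adjusted p = 0.0394), which was not called without OVX+CUMS mouse 5 (adjusted p = 0.0601), and its probe cannot be assigned to 1 of the near-identical alpha globin genes.

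Antioxidant enzymes, several of which are abundant red cell proteins, were lower in 4 of 18 cases and higher in none, with a list median of -0.23 that turned to 0.07 with the spike-in shift. Gpx1, the glutathione peroxidase of red cells, ran from 11.50 to 12.20 (median 11.76) in CUMS mice and from 10.69 to 11.29 (median 10.99) in OVX+CUMS mice and fell by 0.79 (SE 0.15, adjusted p = 0.0106). Prdx2, a peroxiredoxin that red cells hold in large amounts, fell by 0.60 (SE 0.17, adjusted p = 0.034). Hmox1, which breaks down heme, had medians of 0.99 and 0.17 and no overlap (difference -0.80, SE 0.17, adjusted p = 0.0134), but its second detected probe differed by 0.56 in the opposite direction without passing the test (adjusted p = 0.266).

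**Figure D1:**
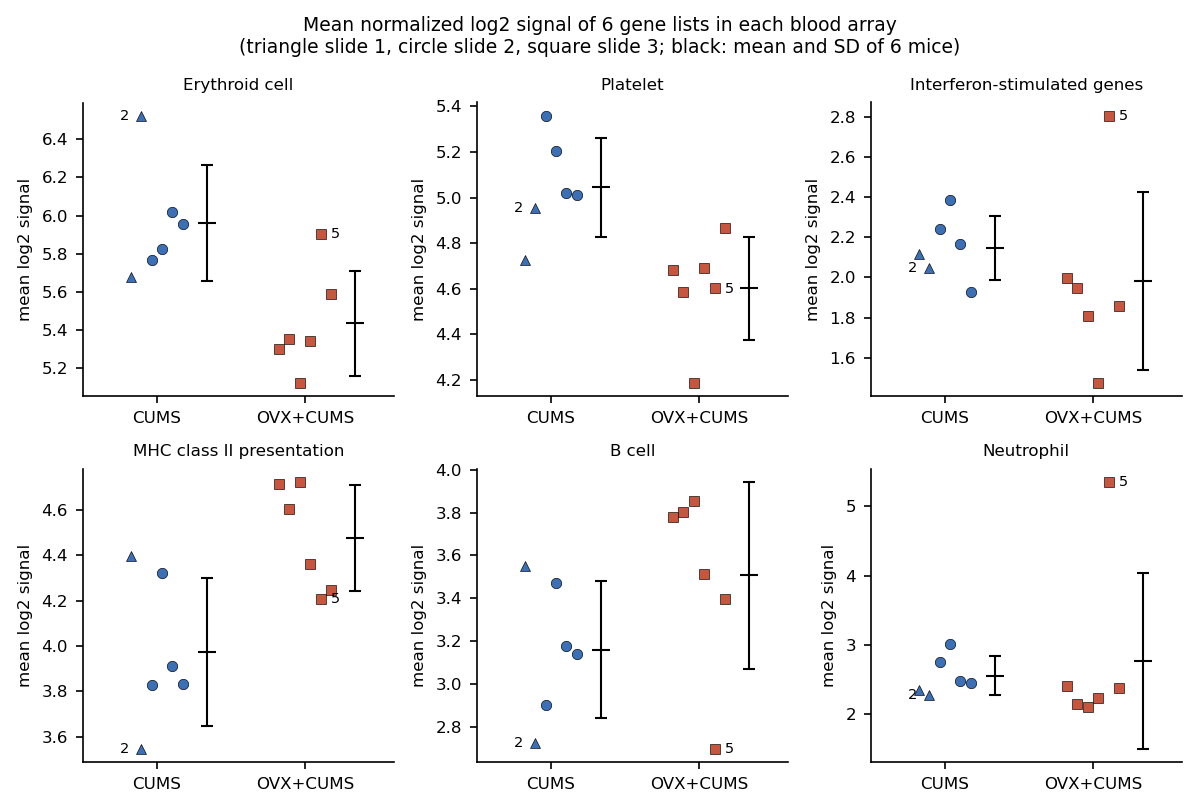
Mean normalized log2 signal (vertical axes) of the detected members of 6 gene lists in each of the 12 mice, with the mean and SD of the 6 mice in black, symbol shape for the slide, and CUMS mouse 2 and OVX+CUMS mouse 5 marked. Erythroid and platelet levels were lower in OVX+CUMS mice, with 5.90 in mouse 5 the highest erythroid value of that group, and the neutrophil level of mouse 5 was 5.36.

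Platelet transcripts were lower as well. Platelets carry RNA from their parent megakaryocytes, and all 22 detected markers had a difference below 0, of which 9 passed the test, with a median of -0.46. The median was -0.16 with the spike-in shift, where none was called, -0.34 with quantile normalization, -0.23 with normexp correction and -0.75 with slide as a term. The list had a mean level of 4.72 to 5.36 (median 5.02) in CUMS mice and 4.19 to 4.87 (median 4.64) in OVX+CUMS mice, so the groups overlapped little, and mouse 5 of the OVX+CUMS group did not stand apart. With it left out, 7 members were called. Only 3 were called without CUMS mouse 5 or 6 or OVX+CUMS mouse 1, 2 or 3, and 4 without CUMS mouse 3. Vwf, the von Willebrand factor that tethers platelets, ran from 5.79 to 6.72 (median 6.17) and from 4.98 to 5.72 (median 5.43), with no overlap (difference -0.80, SE 0.17, adjusted p = 0.0127). Its other detected probe fell by 0.73 (adjusted p = 0.0252). Nrgn, which encodes neurogranin and is a platelet marker in blood, fell by 0.65 (SE 0.15, adjusted p = 0.0144), and Gp5, a subunit of the receptor for that factor, by 0.64 (SE 0.15, adjusted p = 0.0184).

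Interferons switch on many antiviral genes, whose promoters often carry the interferon-stimulated response element. Of 24 detected interferon-stimulated genes 5 fell and none rose, with a list median of -0.05, which was 0.25 with the spike-in shift and lay within -0.31 and 0.07 when any 1 mouse was left out. The core of the element is GAAA and, after any 2 bases, GAAA again, on either strand. It stood in the 250 bases before the start of 9 of the 17 members with a window. Among them were 3 of 4 that fell and 6 of 13 not called. Of all 27025 genes with a window, 3.46% hold the core. It is in capitals in the promoters of Isg15, an ubiquitin-like antiviral protein (chr4:156200826-156200945, minus strand, GRCm38.p6, overlapping copies joined), and Oas3, a sensor of double-stranded RNA (chr5:120777670-120777789, minus strand).
Isg15: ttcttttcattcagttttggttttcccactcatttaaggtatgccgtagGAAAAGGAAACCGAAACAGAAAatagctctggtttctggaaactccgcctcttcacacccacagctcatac
Oas3: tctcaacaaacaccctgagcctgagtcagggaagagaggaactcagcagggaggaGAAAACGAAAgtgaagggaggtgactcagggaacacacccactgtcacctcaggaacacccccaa
Isg15 ran from 7.16 to 8.62 (median 7.56) in CUMS mice and from 5.78 to 7.75 (median 6.52) in OVX+CUMS mice. Mouse 5 alone made the groups overlap, and the difference was -1.08 (SE 0.31, adjusted p = 0.0342).

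Irf7, the factor that amplifies interferon production, ran from 3.84 to 4.75 (median 4.10) in CUMS mice and from 2.45 to 3.74 in OVX+CUMS mice. The groups did not overlap, and the difference was -1.02 (SE 0.22, adjusted p = 0.0133). Oas3 had medians of 2.00 and 1.11 (difference -0.87, SE 0.25, adjusted p = 0.0343), with its highest value, 3.08, in CUMS mouse 2. Rsad2, the brightest of the list and an inhibitor of viral replication, had medians of 8.61 and 7.98 and did not pass the test (difference -0.51, SE 0.20, adjusted p = 0.0805). Without OVX+CUMS mouse 5, in which the list's mean level was 2.80 against 1.47 to 2.00 in the other 5, 9 members were called lower. The count was 2 without CUMS mouse 2 or 6 or OVX+CUMS mouse 4, and 1 without CUMS mouse 5 or OVX+CUMS mouse 1, 2 or 3.

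Of 18 Toll-like receptor and signalling genes 2 fell, a share near the 8.52% of all genes. They were Tlr7 and Tlr8, endosomal receptors for single-stranded RNA, and neither was called without OVX+CUMS mouse 5 (adjusted p = 0.0605 and 0.0728), with slide as a random effect or with the spike-in shift. Tlr7 ran from 4.05 to 5.44 and from 3.11 to 4.35 (difference -0.84, SE 0.25, adjusted p = 0.0387), while a dimmer second probe of the gene differed by 0.76 without passing (adjusted p = 0.0711). Tlr8 ran from 0.58 to 1.42 and from -0.38 to 0.75 and fell by 0.62 (SE 0.20, adjusted p = 0.0473). Siglech, a surface lectin of plasmacytoid dendritic cells, the cells that release most interferon, rose. It lay between 8.05 and 8.56 in CUMS mice and between 8.70 and 9.21 in OVX+CUMS mice, without overlap (difference 0.62, SE 0.13, adjusted p = 0.0121), and was the 1 of 5 detected dendritic cell markers to pass.

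Among leukocyte genes, those of antigen presentation on MHC class II molecules shared their sign. All 12 detected members had a difference above 0, with a median of 0.46 that was 0.77 with the spike-in shift, 0.52 with quantile normalization and 0.26 with slide as a term, but only Ciita passed. Ciita, the master activator of MHC class II genes, ran from -0.90 to 0.53 (median -0.62) in CUMS mice and from 0.05 to 1.19 (median 0.79) in OVX+CUMS mice (difference 1.19, SE 0.26, adjusted p = 0.013). H2-Ab1, the brightest member and a chain of the class II molecule itself, had medians of 8.03 and 8.50 (difference 0.38, SE 0.19, adjusted p = 0.161). Class II genes are strong in B cells, and 17 of 18 B cell markers also had a difference above 0, with a median of 0.41 and none called (limma, 7 at an unadjusted p under 0.05). Cd79b, a chain of the B cell receptor, had medians of 6.63 and 7.12 (difference 0.41, SE 0.21, adjusted p = 0.161). The B cell list had a mean level of 2.72 to 3.55 in CUMS mice and of 3.40 to 3.86 in 5 OVX+CUMS mice, with 2.70 in mouse 5. Without mouse 5, 7 B cell markers and 4 class II genes were called higher.

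Monocyte and neutrophil markers were highest in OVX+CUMS mouse 5. All 13 monocyte markers had a difference above 0, with a median of 0.77 over all mice and 0.42 without mouse 5, and 2 passed in either case. With slide as a term the median was 0.23 and none passed. Ear2, a ribonuclease of patrolling monocytes and eosinophils, ran from 1.46 to 2.75 and from 2.51 to 4.24 (difference 1.07, SE 0.30, adjusted p = 0.0309), and Nr4a1, the receptor on which patrolling monocytes depend, ran from 2.27 to 3.34 and from 3.12 to 4.80 (difference 0.95, SE 0.26, adjusted p = 0.0276). In both the highest value was that of mouse 5. The neutrophil list had a median of 0.26, which was -0.34 without mouse 5, where 2 markers were called lower and none higher. S100a9, the neutrophil marker with the brightest probe, had medians of 8.32 and 8.33 and reached 11.17 in mouse 5 (difference 0.28, SE 0.46, adjusted p = 0.67). Csf3r, the receptor for granulocyte colony-stimulating factor, which was not called without mouse 5 (adjusted p = 0.0512), was the 1 neutrophil marker that rose over all 12 mice, from a median of 7.31 to one of 7.85 (difference 0.53, SE 0.15, adjusted p = 0.0306), and its groups did not overlap.

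T cell markers differed little. Of 23, 1 fell and none rose, with a median of -0.15 that became 0.15 with the spike-in shift. That gene was Cd8b1, a chain of the CD8 coreceptor, with 3.72 to 5.10 in CUMS mice and 3.14 to 4.05 in OVX+CUMS mice (difference -0.82, SE 0.25, adjusted p = 0.04). Its lowest value was that of OVX+CUMS mouse 5, without which it was not called (adjusted p = 0.0696). None of 13 NK and cytotoxic cell markers was called (limma, 1 at an unadjusted p under 0.05), and their median was 0.01. Il5ra, the interleukin 5 receptor of eosinophils, basophils and some B cells, rose from a median of 0.02 to 1.09 (difference 0.90, SE 0.20, adjusted p = 0.0151) and was the 1 of 5 detected eosinophil and basophil markers to do so. Of 17 genes for homing of leukocytes 2 rose. They were Itga4, the alpha 4 integrin, with medians of 3.68 and 4.38 (difference 0.61, SE 0.15, adjusted p = 0.0196), and Klf2, a factor that keeps lymphocytes in circulation, with 4.64 to 5.30 and 5.21 to 5.75 (difference 0.54, SE 0.16, adjusted p = 0.0338).

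Of the receptors for ovarian hormones, Esr2 was called. Esr2, which encodes estrogen receptor beta, ran from 1.87 to 2.66 (median 2.47) in CUMS mice and from 2.82 to 3.68 (median 3.32) in OVX+CUMS mice. Every ovariectomized mouse was higher, by 0.88 on average (SE 0.18, adjusted p = 0.0118). Esr1 and Pgr, the receptors for estrogen (alpha) and progesterone, were not detected on all 12 arrays. Of the 19 detected estrogen receptors, coregulators and targets, 2 rose and 1 fell, shares near those of all genes, with a median of 0.05. The other riser was Myb, a factor of blood progenitors that estrogen induces in breast cells, with medians of -1.12 and -0.19 (difference 0.91, SE 0.19, adjusted p = 0.012). The one that fell was Esrrb, an orphan receptor that binds no estrogen, with medians of 1.24 and 0.70 (difference -0.61, SE 0.18, adjusted p = 0.038), and was not called without OVX+CUMS mouse 5 (adjusted p = 0.0641) or with the spike-in shift.

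Glucocorticoid-induced genes and corticosteroid receptors moved little as a list, with 1 of 14 higher, 1 lower and a median of 0.10. Nr3c2, the mineralocorticoid receptor, ran from 0.51 to 1.75 (median 1.38) in CUMS mice and from -0.62 to 0.74 (median -0.13) in OVX+CUMS mice (difference -1.22, SE 0.28, adjusted p = 0.0169). Of the ovariectomized mice, 4 lay below all CUMS mice and the other 2 overlapped with them. Ddit4, an inhibitor of mTOR signalling that stress hormones induce, ran from 0.96 to 1.62 and from 1.54 to 2.41 and rose by 0.68 (SE 0.16, adjusted p = 0.018). Cyp27b1, the enzyme that makes active vitamin D, showed the second steepest fall of the comparison among genes without overlap. It ran from 0.02 to 1.16 (median 0.84) in CUMS mice and from -1.22 to -0.51 (median -0.90) in OVX+CUMS mice, 3.08-fold lower (difference -1.62, SE 0.19, adjusted p = 0.00372). None of 7 detected osteoclast and bone-loss cytokine genes was called (limma, 1 at an unadjusted p under 0.05), and none of 8 inflammatory cytokine and inflammasome genes (3 at an unadjusted p under 0.05).

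Rbm3, an RNA-binding protein induced by mild cold, lay between 2.66 and 3.17 in CUMS mice and between 3.56 and 3.98 in OVX+CUMS mice. No mouse overlapped, and the gene rose by 0.87 (SE 0.13, adjusted p = 0.00509), while its dimmer probe differed by 0.43 (adjusted p = 0.0642). Cirbp, the cold-inducible relative of Rbm3, gave opposite calls from its 2 detected probes, with a fall of 0.49 (SE 0.16, adjusted p = 0.0465) from the brighter one and a rise of 1.00 (adjusted p = 0.00885) from the other. The fall was not called without OVX+CUMS mouse 5 (adjusted p = 0.0593). The remaining 10 of 12 cold-inducible and heat shock genes were not called. Of 9 circadian clock genes only Bhlhe41, a repressor in the clock loop, was called, with -2.37 to -1.72 in CUMS mice and -3.13 to -2.48 in OVX+CUMS mice (difference -0.71, SE 0.15, adjusted p = 0.0129).

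**Figure D2:**
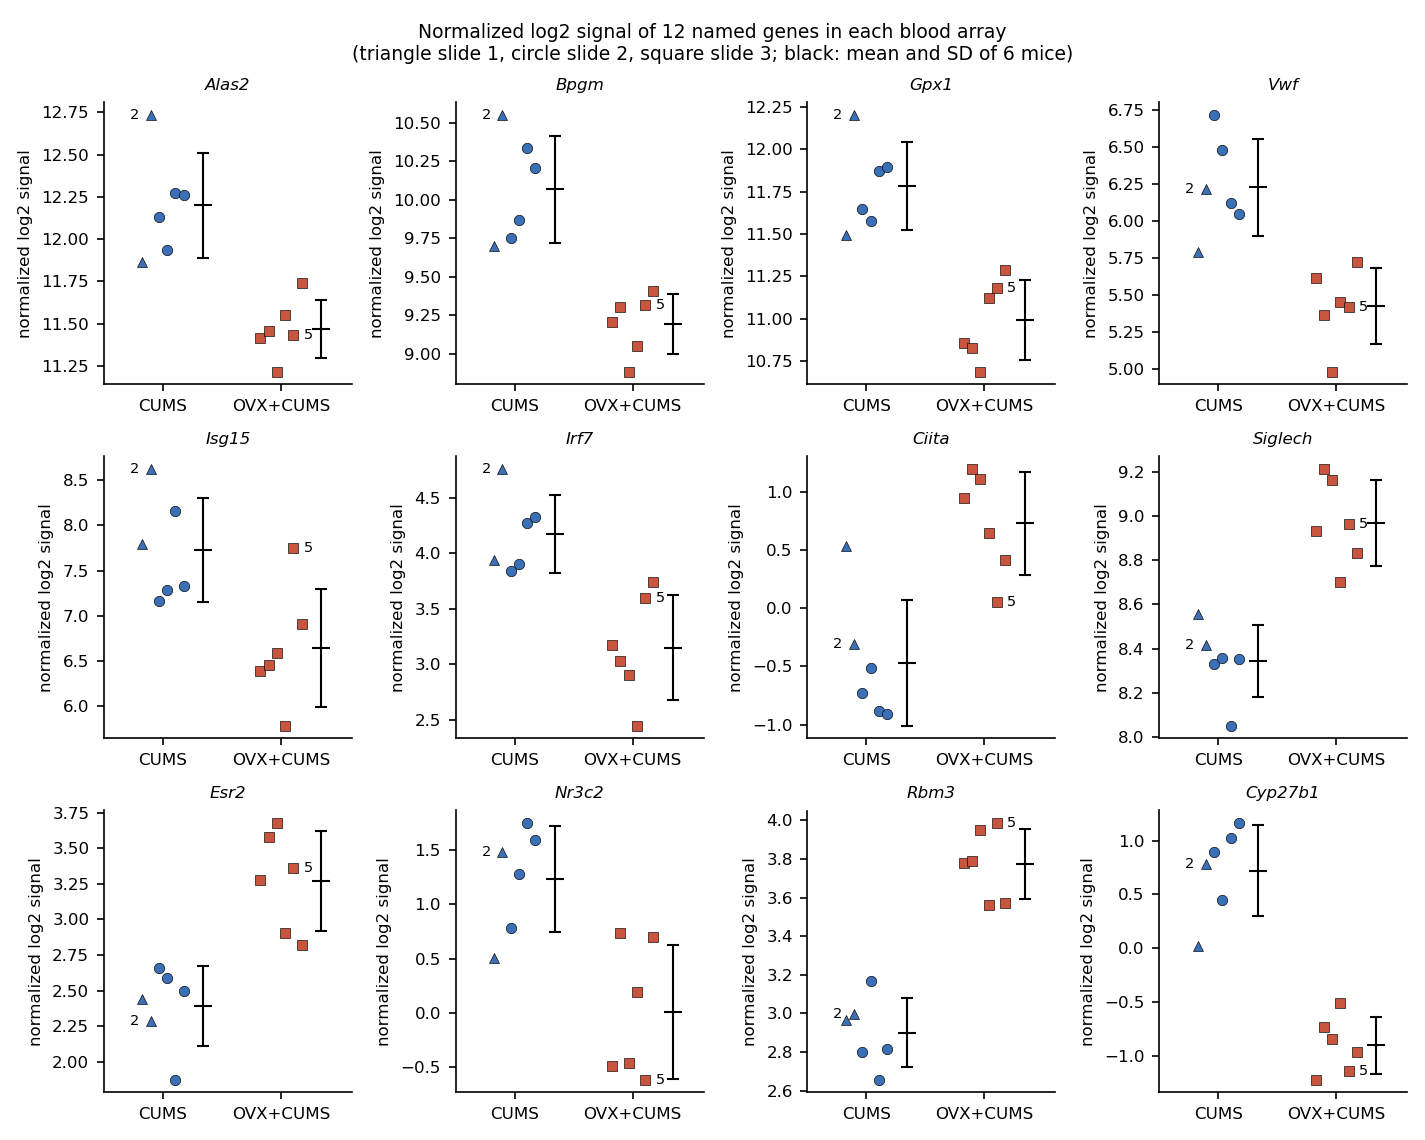
Normalized log2 signal (vertical axes) of 12 named genes in each mouse, with the mean and SD of 6 mice in black and symbol shape for the slide. The groups did not overlap for Alas2, Bpgm, Gpx1, Vwf, Irf7, Siglech, Esr2, Rbm3 and Cyp27b1, whereas Isg15, Ciita and Nr3c2 overlapped.

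Immediate early genes, which cells switch on within minutes of a stimulus, went both ways, with 3 of 9 higher and 2 lower. Beside Nr4a1 and Klf2, Klf4 rose from a median of 0.47 to 1.17 (difference 0.91, SE 0.26, adjusted p = 0.0306). Jund, a subunit of the AP-1 factor, ran from 7.55 to 8.25 in CUMS mice and from 7.01 to 7.46 in OVX+CUMS mice, with no overlap (difference -0.55, SE 0.14, adjusted p = 0.0233), and Fosb, another subunit, fell by 0.54 (SE 0.17, adjusted p = 0.042; 0.0678 without OVX+CUMS mouse 5). Of 14 detected cell cycle genes 3 fell and 1 rose. The mitotic genes Ccna2 (cyclin A2, medians 3.35 and 2.48), Ccnb2 (cyclin B2, medians 2.12 and 1.51) and Birc5 (survivin, medians 1.11 and 0.64) fell by 0.78, 0.60 and 0.55 (for Ccnb2 the adjusted p was 0.0509 without OVX+CUMS mouse 5), and Pcna, the sliding clamp of DNA replication, rose by 0.49 (SE 0.16, adjusted p = 0.0473).

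Histone genes were picked by symbol, which takes in those of the replication clusters, whose RNAs mostly lack a poly(A) tail. The picked genes were lower in 12 of 41 cases and higher in 2. Their median was -0.33, which was -0.40 with slide as a term and -0.03 after spike-in scaling. H2bu2 fell most, from a median of 1.36 to -0.87 (difference -1.81, SE 0.44, adjusted p = 0.0192), with a wide spread among CUMS mice from -0.49 to 2.23. H3c11 ran from -1.25 to -0.35 and from -1.65 to -1.27, and H2bc14 from 5.11 to 5.76 and from 4.52 to 4.91. Neither overlapped, and they fell by 0.76 (SE 0.16, adjusted p = 0.0126) and 0.62 (SE 0.13, adjusted p = 0.0127). The 2 that rose were H3c4, by 0.48 (SE 0.15, adjusted p = 0.0447), and the oocyte linker histone H1f8, by 0.86 (SE 0.28, adjusted p = 0.048), which differed by -0.06 against the 2 CUMS arrays of slide 1 alone. Neither rise was called without OVX+CUMS mouse 5 (adjusted p = 0.068 and 0.0722). Histone genes are near copies of each other, so their probes may share targets.

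Genes for mitochondrial ribosomal proteins were more often higher than lower. Of 73 mitochondrial ribosomal protein genes 11 rose and 1 fell, and 63 had a difference above 0, with a median of 0.27 (0.57 with the spike-in shift, 0.03 with slide as a term). Mrpl27 rose from a median of 0.95 to 1.85 (difference 0.81, SE 0.18, adjusted p = 0.0142), Mrpl17 from -0.49 to 0.06 (difference 0.62, SE 0.18, adjusted p = 0.0346) and Mrpl36 from 1.58 to 2.03 (difference 0.57, SE 0.17, adjusted p = 0.0389), while Mrps2 fell from -0.73 to -1.24. Of 79 cytosolic ribosomal protein genes 2 rose and 7 fell, with a median of 0.02 and a range from -0.57 to 0.55. The balance of these calls turned with the processing, with 16 higher and 3 lower by normexp correction, 2 and 0 by quantile normalization, 0 and 0 with the spike-in shift and 0 and 3 without OVX+CUMS mouse 5. The mitochondrial list had 21 higher and 1 lower by normexp correction, 2 and 0 with the spike-in shift and 7 and 0 without that mouse. Rpl41, the brightest, had medians of 10.25 and 9.66 and fell by 0.57 (SE 0.15, adjusted p = 0.0237), with Rps15 and Rplp0 at differences of -0.53 and -0.42 and Rps25 and Rps21 higher by 0.47 and 0.55. A second probe of Rps15 differed by 0.13 in the opposite direction without passing (adjusted p = 0.495), and Mrpl17, Mrpl36, Mrps2, Rps15, Rps21 and Rps25 were not called without OVX+CUMS mouse 5 (adjusted p = 0.0571 to 0.0756). Ribosomal protein probes can pick up processed pseudogenes.

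Of 81 genes of oxidative phosphorylation 4 rose and 10 fell, with a median of 0.08, equal to that of all genes. These counts were 16 and 7 by normexp correction, 16 and 17 in the 4-group fit and 1 and 0 with the spike-in shift, so the balance of the calls turned. Cox6a2, the muscle form of a cytochrome oxidase subunit, fell by 0.93 (SE 0.24, adjusted p = 0.0247), Atp5h, a subunit of ATP synthase, by 0.80 (SE 0.16, adjusted p = 0.0114) and Cox6a1 by 0.67 (SE 0.17, adjusted p = 0.0207). Atp5h lay between 6.77 and 7.61 in CUMS mice and between 6.10 and 6.72 in OVX+CUMS mice, and its other probe fell too. Atp5g3, Ndufa8 and Sdhb rose by 0.65, 0.65 and 0.50, Sdhb not without OVX+CUMS mouse 5 (adjusted p = 0.0759). Among 37 proteasome genes 32 had a difference above 0, with a median of 0.29, but only 2 rose and 1 fell. Psma1 and Psmc2, subunits of the core and of the cap, rose by 0.64 and 0.49 (Psmc2 had an adjusted p of 0.0537 without OVX+CUMS mouse 5), and Psmd4, a ubiquitin receptor of the proteasome, ran from 6.95 to 7.57 and from 6.39 to 6.77 and fell by 0.53 (SE 0.14, adjusted p = 0.0229).

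**Figure D3:**
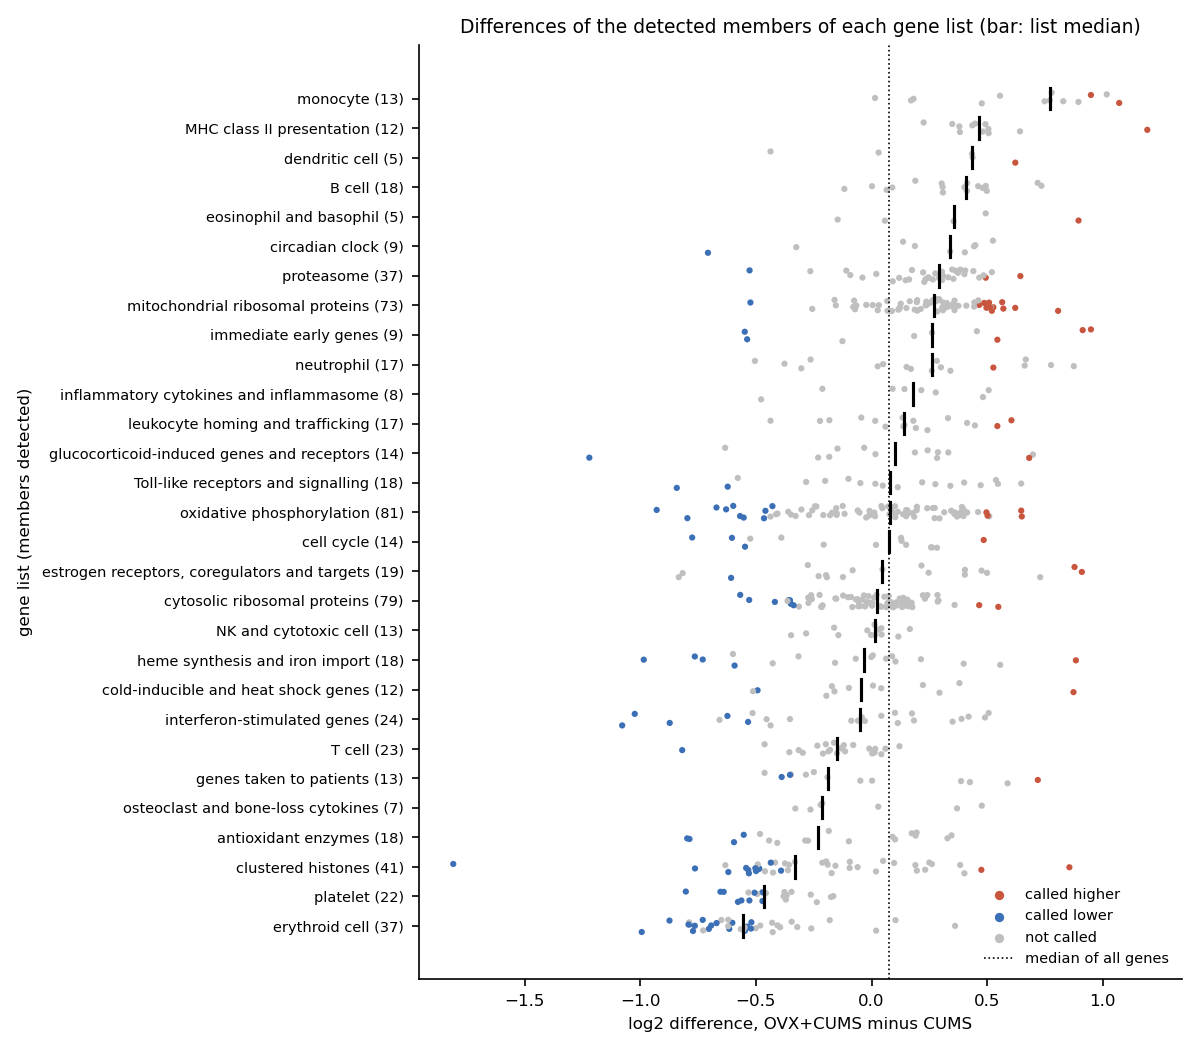
Log2 difference, OVX+CUMS minus CUMS (horizontal axis), of each detected member of the gene lists with 5 or more detected members, coloured by its call, with a bar at each list median and a dotted line at the median of all genes (0.08). Erythroid, platelet and histone members lie mostly below the line, with list medians of -0.55, -0.46 and -0.33, and MHC class II and monocyte members mostly above it.

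The 10 genes that rose most without overlap of the groups were Slfn9, 5430431A17Rik, Gm6252, Tbx22, B020031M17Rik, Rabgap1, Usp8, Ddx25, Pnma2 and Tdgf1, by 1.51 to 2.19 on the log2 scale. Slfn9, of the Schlafen family of interferon-responsive genes (chr11:82974316-82991830, GRCm38.p6), ran from -0.048 to 1.48 (median 1.06) in CUMS mice and from 2.41 to 3.85 (median 3.24) in OVX+CUMS mice, 4.56-fold higher (SE 0.30 log2, adjusted p = 0.00504). A second probe of Slfn9 rose by 1.98 (adjusted p = 0.00442). The long noncoding RNA 5430431A17Rik (chr7:44484517-44485413) was 4.41-fold higher (adjusted p = 0.0069) and the pseudogene Gm6252 (chr19:9216311-9216995) 3.88-fold (adjusted p = 0.00509). Gm6252 was also the brightest of the 10 and ran from 3.47 to 4.86 and from 5.56 to 7.09.

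The same ovariectomized mice led in these 10 genes. In 10 of 10, the same mice (OVX+CUMS 2, 3 and 5) held the 3 highest values, separated from the other 3 by gaps of 0.59 to 1.26. The sets were not always tight. In Ddx25 the gap of 0.59 was smaller than the spread within the upper set (0.79) and within the lower set (0.64). In Slfn9 these mice had 3.70 to 3.85 and the other 3 had 2.41 to 2.77, and in Rabgap1, an activator of the Rab6 GTPase, 2.34 to 2.62 and 1.03 to 1.37. Mice 2, 3 and 5 are not set apart by any label, and they lay on 1 slide with mice 1, 4 and 6. Among CUMS mice, mouse 5 was lowest in Slfn9 (-0.048), Gm6252 (3.47) and Usp8, a deubiquitinase (-2.51).

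The 10 genes that fell most without overlap were Olfr1211, Cyp27b1, Olfr435, Olfr251, Vmn2r3, Ptchd1, Spint5, Ptpn14, Best1 and Fxyd6, by 1.39 to 1.64. Of these, 4 are named as olfactory or vomeronasal receptors, genes known for odour sensing. Olfr1211 (chr2:88929378-88934526, GRCm38.p6) ran from 2.46 to 3.64 (median 3.20) in CUMS mice and from 1.27 to 1.89 (median 1.41) in OVX+CUMS mice, 3.11-fold lower (adjusted p = 0.00372). Ptchd1, a patched-domain membrane protein, had medians of 3.51 and 1.91, and Ptpn14, a tyrosine phosphatase of the Hippo pathway, had 1.47 and 0.15. Vmn2r3 had a second detected probe that differed by 0.20 without passing (adjusted p = 0.616). Among the brighter probes the steepest falls beside Olfr1211 and Ptchd1 were those of Gm9958, D4Ertd681e and Krt80, an epithelial keratin with 3.75 to 4.70 in CUMS mice and 2.54 to 3.42 in OVX+CUMS mice (difference -1.36, SE 0.20, adjusted p = 0.00512). With slide as a term the difference was above 0 for Olfr251, Vmn2r3, Ptchd1, Spint5, Best1, Fxyd6 and Krt80, and it stayed above 0 for all 10 genes that rose, from 0.79 to 1.36.

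**Figure D4:**
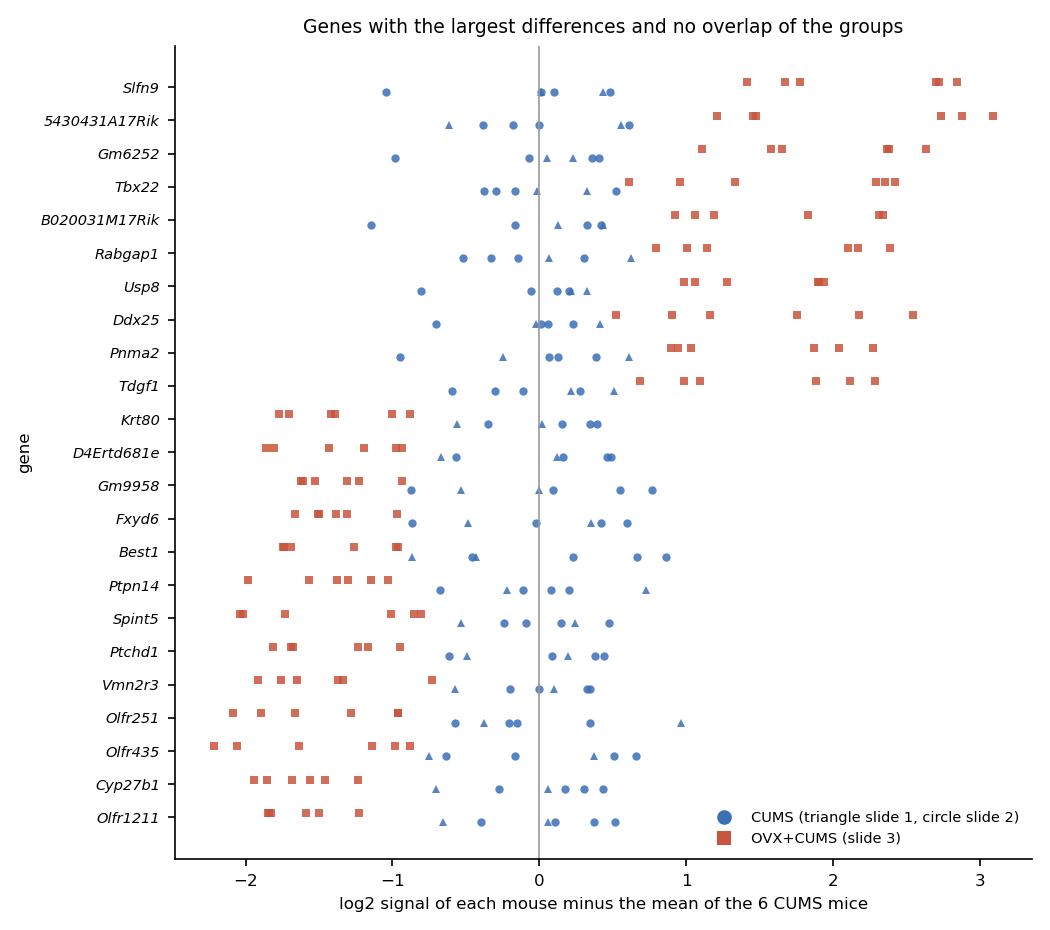
Normalized log2 signal of each mouse minus the mean of the 6 CUMS mice (horizontal axis) for the genes with the largest differences and no overlap of the groups. In the 10 genes that rose most, OVX+CUMS mice 2, 3 and 5 lay above the other 3, by a gap that varied between genes.

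At the limit of detection, 78 probes, 41 of them with a gene symbol, were well above background on all 6 OVX+CUMS arrays and on no CUMS array, and none showed the reverse. The CUMS arrays were the dimmer ones, and the part of brightness in this count was not tested. The dim side has only a bound, taken as the higher of the probe's own signal and the lowest signal among probes well above background on each array. Rhox3a, a homeobox gene of the reproductive tract, was at least 2.80-fold higher in OVX+CUMS mice, Tdrd5, a gene of germ cell development, at least 2.59-fold, and Clec4a2, a lectin receptor of myeloid cells, at least 2.40-fold.

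The study matched probes that changed with depression in patients to mouse blood probes and took the 14 shared genes to PCR in patients. After PCR it kept CIDEC, RNASE1, SLC36A1 and STYXL1 as candidates. The others, BANP, NIPAL3 and RPS2 among them, were reported without a change that followed the depressed state. Of the 14 genes, 13 were detected here. The mouse probes differed from sham-operated mice without stress in OVX+CUMS mice, but not in OVX or CUMS mice. The comparison made here is a different one. The list of 14 was chosen on these arrays among others, so its counts are not independent evidence. Of the 13, 1 rose and 2 fell between OVX+CUMS and CUMS mice, with a median of -0.19 (0.11 with the spike-in shift). Banp, a nuclear matrix protein, lay between 3.18 and 3.47 in CUMS mice and between 3.66 and 4.41 in OVX+CUMS mice and rose by 0.72 (SE 0.15, adjusted p = 0.0118). Nipal3, a putative magnesium transporter, fell by 0.39 (SE 0.12, adjusted p = 0.0463) and Rps2, a ribosomal protein, by 0.35 (SE 0.11, adjusted p = 0.0469), both without overlap. Neither fall was called without OVX+CUMS mouse 5 (adjusted p = 0.0728 and 0.0587), by normexp correction or by quantile normalization. A second probe differed by -0.12 for Banp (adjusted p = 0.562) and by 0.05 for Nipal3 (adjusted p = 0.821). The 10 not called ranged from -0.46 to 0.59. Among them Slc36a1, an amino acid transporter, differed by -0.35 by its brightest probe (adjusted p = 0.172), while a dimmer probe of it rose by 0.97 (adjusted p = 0.0102). Rps29, the study's reference gene for quantitative PCR, lay between 9.12 and 9.53 in CUMS mice and between 8.90 and 9.07 in OVX+CUMS mice, at a difference of -0.31 by its brightest probe (SE 0.11, adjusted p = 0.0665) and -0.01 with the spike-in shift, and its other 2 probes passed at -0.48 and -0.46.

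Of the 15 detected markers of tissues other than blood, 1 passed the test. Fgb, a fibrinogen chain made by the liver and stored in platelets, lay between 0.81 and 1.66 in CUMS mice and between -0.17 and 0.28 in OVX+CUMS mice (difference -1.19, SE 0.16, adjusted p = 0.00504). The mean level of the 2 fat cell markers was 0.040 in OVX+CUMS mouse 5 and -1.55 to -1.01 in the other 11 mice. One of the 2, Retn, is also a neutrophil gene. The 4 pancreas markers had a mean level of 0.90 to 1.64 in CUMS mice and 0.16 to 1.33 in OVX+CUMS mice.

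Whether ovariectomy differed between stressed and unstressed mice was tested over all 24 blood arrays, as the OVX+CUMS minus CUMS difference less the OVX minus control difference. Of 21675 probes detected on all 24 arrays, 249 passed, 226 above 0 and 23 below. Among 11940 genes, 134 (1.12%) passed, 119 above 0 and 15 below. Ciita was one of them. Its mean level was 0.77 ± 0.21 (SD, n = 6) in control and 0.40 ± 0.58 in OVX mice but -0.47 ± 0.54 in CUMS and 0.73 ± 0.44 in OVX+CUMS mice, a difference between the effects of 1.56 (SE 0.36, adjusted p = 0.045, limma). The median of this difference between effects was -0.20 over the erythroid list, -0.33 over the platelet list and 0.14 over the interferon list, beside 0.03 over all genes.

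The genes furthest below 0 were 4930471M09Rik, Pdlim4, Sdccag8, Cdc123 and Mtfp1. Pdlim4, a cytoskeletal protein with a LIM domain, had mean levels of 1.86 in control, 1.83 in OVX, 2.43 in CUMS and 1.20 in OVX+CUMS mice, a difference of effects of -1.20 (SE 0.29, adjusted p = 0.0477). Furthest above 0 were Gm9372, BC062258, Lcn12, Gm8909 and Dppa2, at 2.52 to 2.76. In these 5 the CUMS mice split by slide. BC062258 had a mean of 10.90 in the 2 CUMS mice of slide 1, which held the control mice (10.21). In the 4 CUMS mice of slide 2, which held 4 of the OVX mice, it was 8.25. The mean over all OVX mice was 7.78, and OVX+CUMS mice had 9.44. Lcn12, a lipocalin, had 8.58 in the CUMS mice of slide 1 and 6.31 in those of slide 2. No probe passed with slide as a term (limma, 230 at an unadjusted p under 0.05) or with the spike-in shift (2388 at an unadjusted p under 0.05). Leaving out 1 mouse left no call in 19 of 24 cases, and otherwise 941 and 2008 without CUMS mice 1 and 2, 158 without control mouse 2, and 668 and 910 without OVX mice 5 and 6.

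**Figure D5:**
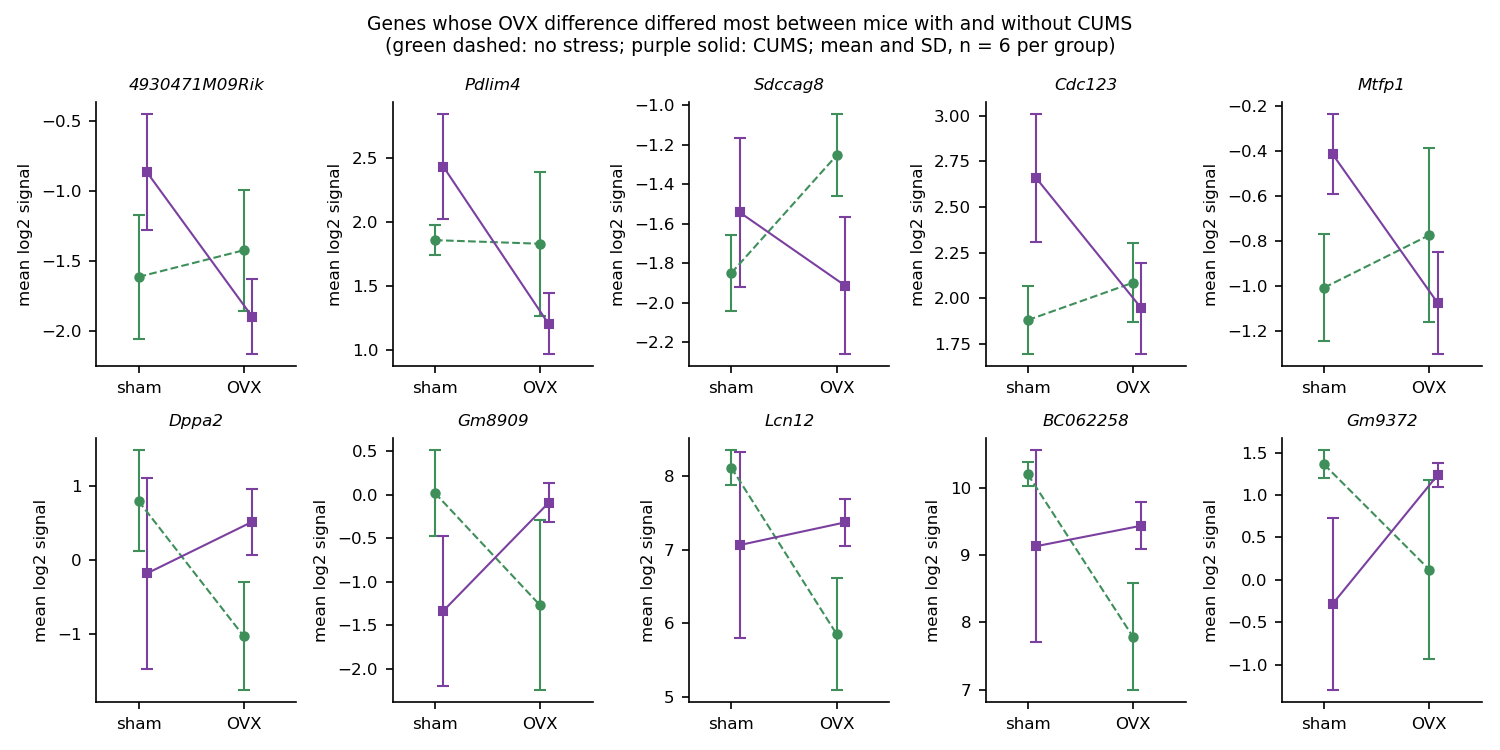
Mean normalized log2 signal and SD (vertical axes, n = 6 mice per group) of the 5 genes furthest below 0 (upper row) and the 5 furthest above 0 (lower row) in the difference between the ovariectomy effects with and without CUMS. The lines cross in all 10 panels, and the CUMS sham mice of the lower row spread widely.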

How the data were processed

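RNA from the blood pellet was labelled with Cy3 and hybridised to 1-colour Agilent mouse arrays, 1 array per mouse. The authors quantified intensity with Agilent Feature Extraction 10.7.3.1, which subtracts background, and deposited the processed signals. They also deposited a table of log2 values shifted to the 75th percentile, used as an alternative; its 24 columns of cortex arrays were not used here. From the deposited intensity values, log2 minus each array's 75th percentile was computed, control probes were left out, and probes well above background on all 12 arrays were kept. Groups came from the sample labels. OVX+CUMS and CUMS arrays were compared with limma 3.58.1 in R 4.3.3 (2-group fit, Benjamini-Hochberg over all detected probes, threshold 0.05). The difference of ovariectomy effects was fitted over 24 arrays. A gene was read from its brightest detected probe. On simulated data with 200 changed probes among 22038, 68% were recovered at a log2 change of 1 and 95% at 2 (61% and 96% for the difference of effects, with 200 changed among 21675). The simulated noise was independent between probes and held no slide effect and no outlying mouse. These rates therefore check the fit and do not measure recovery on the real arrays.

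The number of arrays limits the precision. The members and gene lists were chosen with earlier results of these data known. Named were the 10 genes that rose and the 10 that fell most without overlap, 5 and 5 among brighter probes, up to 3 called members per direction and the brightest member of each list, the genes taken to patients, the 5 largest differences of effects per direction, and up to 3 probes seen in 1 group only. Not every gene this rule allows is described. Promoter sequences and coordinates came from RefSeq (GRCm38.p6). Alternatives covered background correction, normalization, detection filter, array weights, slide, replicate number and leaving out each mouse.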

Additional observations from a re-analysis of the deposited data

Results flagged for a closer look

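In 30 of 288 groups of 6 values, the highest or lowest mouse lay apart from the others by more than Dixon's 95% limit, where chance gives about 1 in 20. Of these, 17 were OVX+CUMS mouse 5, 7 CUMS mouse 2, 4 CUMS mouse 5, and 1 each CUMS mouse 4 and OVX+CUMS mouse 6.

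OVX+CUMS mouse 5 was highest in the mean level of the neutrophil (5.36), monocyte (4.66), fat cell (0.040), heme synthesis (3.92), inflammatory cytokine (2.04), Toll-like receptor (1.90), immediate early (2.89) and antioxidant (4.63) lists, and lowest in the T cell list (2.06) and the genes taken to patients (1.82). Among single genes it was highest in S100a9 (11.17), Nr4a1 (4.80), Ear2 (4.24), Klf4 (2.22), Ndufa8 (1.91) and Flvcr1 (0.53) and lowest in Mrps2 (-1.83).

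CUMS mouse 2 had the fewest probes well above background (23578) and was highest in Rps15 (9.91), Rsad2 (9.33), Jund (8.25), Psmd4 (7.57), Oas3 (3.08) and the endothelium list (3.83). CUMS mouse 5 was lowest in Csf3r (6.92), Gm6252 (3.47), Slfn9 (-0.048) and Usp8 (-2.51). CUMS mouse 4 was highest of its group in the estrogen receptor list (1.73), and OVX+CUMS mouse 6 lowest in Psmc2 (2.99).

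By the interaction test (limma) the effect of ovariectomy differed between stressed and unstressed mice for 249 probes. No probe passed with slide as a fixed block, the spike-in shift or the replicate block, nor in most fits that left out 1 mouse. The genes furthest above 0 were Gm9372 (2.76), BC062258 (2.73), Lcn12 (2.57), Gm8909 (2.53) and Dppa2 (2.52), and those furthest below were 4930471M09Rik (-1.22), Pdlim4 (-1.20), Sdccag8 (-0.97), Cdc123 (-0.92) and Mtfp1 (-0.89).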

How the results depend on the processing

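The 3562 called probes (1432 higher, 2130 lower) became 5496 with normexp background correction (2832 higher), 1018 with the spike-in shift (866 higher, 152 lower), 738 without a detection filter (287 and 451), 6877 in a 4-group fit (3396 and 3481), 10397 with array weights (5390 and 5007), 2019 with slide as a random block (766 and 1253), 1667 against the CUMS arrays of slide 1 alone (359 and 1308) and 0 with slide as a fixed block in 24 arrays (994 at an unadjusted p under 0.05). Leaving out 1 mouse gave 1140 to 5998 called, 415 to 2793 higher and 725 to 3205 lower. The replicate block gave 2308 called, 717 higher. Same-numbered mice deviated together with correlations of 0.37, -0.08, 0.26, -0.49, -0.15 and 0.22. The OVX+CUMS mouse that correlated best was the same-numbered one for CUMS mice 1, 3 and 6 and another one for CUMS mice 2, 4 and 5. These values do not settle whether the numbers pair mice.

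Of 16 erythroid, 9 platelet and 5 interferon calls, the counts in that order were 15, 1 and 5 with normexp, 8, 5 and 5 with quantile normalization, 0, 0 and 0 under spike-in scaling or slide as a fixed block, 3, 2 and 0 without a filter, 31, 16 and 9 with array weights, 9, 4 and 2 with slide as a random block, 3, 0 and 0 against slide 1 alone, and 12, 4 and 3 with the replicate block. Interferon calls were 2 with each probe's own spread and 2 against slide 2 alone. Leaving out 1 mouse gave 8 to 22, 3 to 12 and 1 to 9. The 249 interaction calls became 1048 with normexp, 410 with quantile normalization, 2 without a filter, 0 with the spike-in shift, slide as a fixed block or the replicate block (limma, 3396 at an unadjusted p under 0.05 with that block), and 0 to 2008 without 1 mouse.

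With slide as a fixed block the sign turned for Olfr251 (0.95), Vmn2r3 (0.23), Ptchd1 (0.15), Spint5 (0.20), Best1 (0.58), Fxyd6 (0.18), Krt80 (0.15), Ahsp (0.20), Trim10 (0.16), Prdx2 (0.049), Hmox1 (0.016), Oas3 (0.11), Rsad2 (0.25), S100a9 (-0.73), Nr3c2 (0.16), Cirbp (0.091), Pcna (-0.028), Rps21 (-0.19), Cox6a2 (0.12), Fgb (0.060) and the difference of effects of BC062258 (-0.037). S100a9 was -0.058 with array weights and ran from -0.19 (without OVX+CUMS mouse 5) to 0.47 (without CUMS mouse 4), and H1f8 was -0.063 against slide 1 alone. Of 93 called genes followed, 93 passed with the authors' values, 0 with slide as a fixed block and 41 after spike-in scaling. For Ahsp the SE was 0.48 with slide as a fixed block and 0.25 without it, so turned signs of small size are imprecise. The causes were not tested. Dim CUMS arrays limit what is detected.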

Other observations

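Probes for olfactory, vomeronasal and taste receptors were looked at after the steepest falls had been seen, so their values are a description. Of 222 such genes detected in blood, 31 fell and 1 rose, with a median difference of -0.38, beside 0.08 over all 12087 genes. The median was -0.08 with the spike-in shift, -0.09 with slide as a term, -0.49 against the CUMS arrays of slide 1 and -0.32 against those of slide 2. Their median signal was 70.2, beside 218 over all genes.

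Probes for noncoding regions stood lower in the same way. Of 4568 such probes 14.2% fell and 2.30% rose, with a median of -0.25, while of 14916 probes with a gene symbol 8.50% fell and 7.09% rose, with a median of 0.08. The spike-in shift raises every difference alike and moved the median of all 22038 probes from 0.01 to 0.31. The sign of the noncoding median therefore depends on the scaling. These probes were not counted with that shift or with slide as a term.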
